A study of Homo sapiens with 10 samples.

Results

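The genes described here encode the proteins of the mitochondrial ribosome, taken as every gene of the FPKM table whose symbol is MRPL or MRPS with a number and whose mean over the 10 libraries was at least 1 FPKM. They number 78 of the 27942 genes in the table, 49 named for the large and 29 for the small subunit. All 78 symbols that fit the name also passed the level: the lowest mean was 7.65 FPKM (MRPS11), so no gene lay near the threshold. The cells were MCF10A, a non-tumorigenic human mammary epithelial line, grown for 24 h on polyacrylamide gels coated with fibronectin, and messenger RNA was sequenced. There were 5 groups of 2 libraries: gels of 400 Pa with glucose at 25 mM, and gels of 400 Pa, 1 kPa, 6 kPa or 60 kPa with glucose at 5 mM. Each library pooled 4 gel cultures, and the labels call the 2 libraries of a group biological replicates. All groups shared medium with horse serum, epidermal growth factor, insulin, hydrocortisone and cholera toxin. For the 25 mM group, the number is in the series' own description and the samples are called high glucose. No recipe is named for the gel of 1 kPa.

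Mitochondrial ribosomes translate the few proteins that mitochondrial DNA encodes, all of them core parts of the respiratory chain and ATP synthase. Their ribosomal RNAs come from mitochondrial DNA, but every ribosomal protein is made from a nuclear gene, translated in the cytosol and imported. Many of these proteins descend from bacterial ribosomal proteins, and others were added to the mitochondrial ribosome during evolution and have no bacterial counterpart. The division used here lists 48 of the genes with a bacterial homologue and 29 as specific to mitochondria, leaving MRPS36. MRPL55 was counted among the 48, but its bacterial origin is not established. MRPS30 and MRPS18A carry small subunit names but sit in the large subunit of resolved structures, and MRPS36 is now known as a part of the 2-oxoglutarate dehydrogenase complex. Subunits below follow the symbol.

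The libraries had 2.98 to 28.6 M mapped reads and 1.97 to 18.4 M exon reads (M, mega), and both were deepest at 400 Pa and 5 mM glucose. Each of the 78 genes had at least 42 reads in every library. The 2 libraries of a group are called deeper and shallower, and values are given in that order. Over the 78 genes the spread between the libraries of a group was 1.73 to 2.90 times that of Poisson counts in 4 groups and 6.13 times at 6 kPa. The table header places the deeper 1 kPa library in a directory whose name states no gel, so the heading of its column decided the group. All 10 epithelial markers had reads in every group (summed 2233 to 3433 FPKM, lowest at 60 kPa and 25 mM), and the part of this difference in the results was not tested. Of the 2 receptors listed as ones MCF10A is known to lack, PGR was at 0 throughout. ESR1 had traces, at most 0.111 FPKM, in the deeper 60 kPa library. Markers of other cells summed to 8.88 to 21.2 FPKM for leukocytes, lowest at 60 kPa, 11.9 to 19.3 FPKM for fibroblasts and 0.707 to 1.13 FPKM for endothelium. Of these CD3E, MS4A1, COL1A2, COL3A1 and VWF were at 0 in every library, while DCN (14.5 FPKM), CD68 (10.7) and CD14 (5.32) were detected; the part of such transcripts in the results was not tested. In bulk libraries fewer cells with a transcript and less of it per cell cannot be told apart.

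The promoters of 5 genes are shown because all 3 fits called these genes, each in 1 direction, in the comparison of 60 kPa with 400 Pa described below. The sequences are RefSeq's (GRCh38.p14), 250 bases before and 30 after the transcription start, with matches to the searched motifs in capitals.
MRPL42 promoter (chr12:93467264-93467543, plus strand): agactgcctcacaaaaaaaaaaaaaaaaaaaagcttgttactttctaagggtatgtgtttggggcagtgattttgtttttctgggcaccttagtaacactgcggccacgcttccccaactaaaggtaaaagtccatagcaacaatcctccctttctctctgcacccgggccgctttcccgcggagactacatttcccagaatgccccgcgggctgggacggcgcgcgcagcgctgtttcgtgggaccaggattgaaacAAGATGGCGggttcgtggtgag
MRPS10 promoter (chr6:42217832-42218111, minus strand): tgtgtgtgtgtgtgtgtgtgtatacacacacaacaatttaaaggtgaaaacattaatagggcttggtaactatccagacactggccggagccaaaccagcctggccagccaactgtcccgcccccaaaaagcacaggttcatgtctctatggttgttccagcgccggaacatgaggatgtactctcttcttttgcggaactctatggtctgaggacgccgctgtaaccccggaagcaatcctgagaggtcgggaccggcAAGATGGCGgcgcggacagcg
MRPL4 promoter (chr19:10251701-10251980, plus strand): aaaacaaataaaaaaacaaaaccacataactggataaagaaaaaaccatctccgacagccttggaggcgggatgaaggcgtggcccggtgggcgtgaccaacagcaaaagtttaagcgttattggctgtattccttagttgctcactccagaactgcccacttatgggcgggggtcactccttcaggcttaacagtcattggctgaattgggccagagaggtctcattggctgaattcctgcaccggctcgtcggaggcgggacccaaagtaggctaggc
MRPS24 promoter (chr7:43869488-43869767, minus strand): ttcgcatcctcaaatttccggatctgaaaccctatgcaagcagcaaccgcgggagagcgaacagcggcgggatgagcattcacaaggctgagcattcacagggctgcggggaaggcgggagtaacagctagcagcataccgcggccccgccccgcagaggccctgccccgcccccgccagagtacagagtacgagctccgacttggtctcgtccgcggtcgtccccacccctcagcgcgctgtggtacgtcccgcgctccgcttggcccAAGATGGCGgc
MRPL53 promoter (chr2:74472651-74472930, minus strand): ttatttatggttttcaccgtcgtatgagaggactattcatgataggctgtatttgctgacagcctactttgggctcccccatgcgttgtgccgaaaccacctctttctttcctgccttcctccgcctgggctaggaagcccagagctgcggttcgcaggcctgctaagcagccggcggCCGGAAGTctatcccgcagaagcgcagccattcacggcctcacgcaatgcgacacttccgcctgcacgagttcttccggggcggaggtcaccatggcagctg
The capitals mark AAGATGGCG, the motif of the factor YY1, in MRPL42, MRPS10 and MRPS24, and CCGGAAGT, that of ETS factors such as GABP, in MRPL53; MRPL4 had no match. RefSeq promoters of 300 bases were matched for 69 of the 78 genes (85 promoters), and both strands were searched for 4 motifs. AAGATGGCG occurred in 13 of the 85 promoters (15.3%), against 3.57% of the 13962 promoters of all genes tested. CCGGAAGT occurred in 14 (16.5%, against 7.67%), 11 of them in the 52 promoters of large subunit genes. The E-box CACGTG occurred in 9 (10.6%, against 9.50%) and the palindromic motif of NRF1 in 1 (1.18%, against 1.98%). The YY1 motif stands in genes that rose, MRPL42 and MRPS10, and in MRPS24, which fell. A match is only a description of the letters in that window.

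The coding sequences of MRPL42 and MRPL4 are shown because base composition ran with the changes at 60 kPa and at 25 mM more closely than length or level did. The first 120 coding bases of a GENCODE transcript (GRCh38) are given, with G and C in capitals.
MRPL42 coding sequence: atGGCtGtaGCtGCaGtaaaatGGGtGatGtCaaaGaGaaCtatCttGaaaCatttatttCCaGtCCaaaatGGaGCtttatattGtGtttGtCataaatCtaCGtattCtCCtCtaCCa
MRPL4 coding sequence: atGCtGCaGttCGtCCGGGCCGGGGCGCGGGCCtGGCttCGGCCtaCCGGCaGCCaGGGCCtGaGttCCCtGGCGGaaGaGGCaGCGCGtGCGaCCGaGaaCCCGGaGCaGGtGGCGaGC
G and C made up 43 of the 120 bases in MRPL42 and 88 in MRPL4. Over whole transcripts the GC content of the 78 genes ran from 35.0% (MRPL50) to 71.9% (MRPL41), with a median of 49.4%, against 49.3% for all genes tested. The members were shorter, with a median exon length of 1152 bases against 2706. For some genes the transcript used for GC was much longer than the counted one. Examples are MRPL50 (3332 against 1017 bases), MRPL41 (1262 against 600) and MRPL42 (15582 against 3131).

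Levels differed among the genes far more than between the groups. The mean over the 10 libraries was highest for MRPL24, a homologue of bacterial L24, at 119.7 FPKM, followed by the mitochondria-specific MRPL51 (110.0) and MRPL12 (93.2), the homologue of the L7/L12 stalk protein. Among small subunit genes MRPS24 (75.0 FPKM), MRPS15 (74.9) and MRPS34 (70.9) were highest, and MRPS11 (7.65) and MRPS14 (9.12) lowest. The highest gene mean was 15.6 times the lowest, whereas the highest group mean of a gene was 1.13 (MRPS25) to 2.21 (MRPL42) times its lowest, with a median of 1.41. The median level was 33.1 FPKM for large and 30.6 FPKM for small subunit genes.

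**Figure D1:**
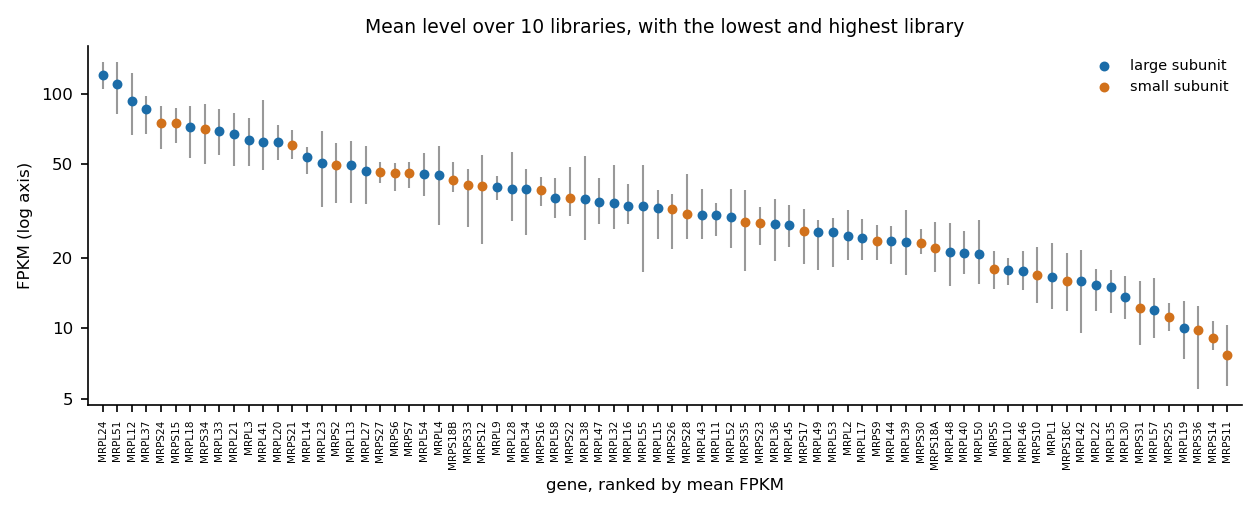
Mean FPKM over the 10 libraries of each of the 78 genes (points, log axis; blue for large, orange for small subunit), with lines from the lowest to the highest library. Large subunit genes run from 119.7 FPKM (MRPL24) to 10.0 FPKM (MRPL19), small subunit genes from 75.0 FPKM (MRPS24) to 7.65 FPKM (MRPS11).

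How far the set changed as a whole depended on the scale, with 25 mM below 400 Pa at 5 mM on each. The summed level was 2853 ± 41 FPKM at 25 mM glucose, and 3011 ± 103 at 400 Pa, 2755 ± 87 at 1 kPa, 3033 ± 23 at 6 kPa and 2965 ± 199 at 60 kPa, all at 5 mM (SD, n = 2 each). The 60 kPa libraries (3106 and 2823 FPKM) overlapped the 400 Pa libraries (2938 and 3084). The 25 mM libraries (2882 and 2825) and the 1 kPa libraries (2816 and 2693) lay below both. With TMM scaling (trimmed mean of M-values) the sums were 2701 ± 37 at 25 mM and 2850 ± 25 at 60 kPa, against 3130 ± 64 at 400 Pa. Shares of exon reads were computed from reads recovered from FPKM, length and library total. The set took 0.524 and 0.516% of exon reads at 25 mM and 0.538 and 0.535% at 60 kPa, against 0.553 and 0.563% at 400 Pa. On this scale the 60 kPa libraries too lay below both 400 Pa libraries. Large subunit genes took 0.323% ± 0.00277 at 25 mM and 0.337% ± 0.00223 at 60 kPa, against 0.345% ± 0.00315 at 400 Pa. Small subunit genes took 0.198% ± 0.00311 at 25 mM and 0.199% ± 0.000386 at 60 kPa, against 0.213% ± 0.00401 at 400 Pa. No p-value was computed for these sums.

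**Figure D2:**
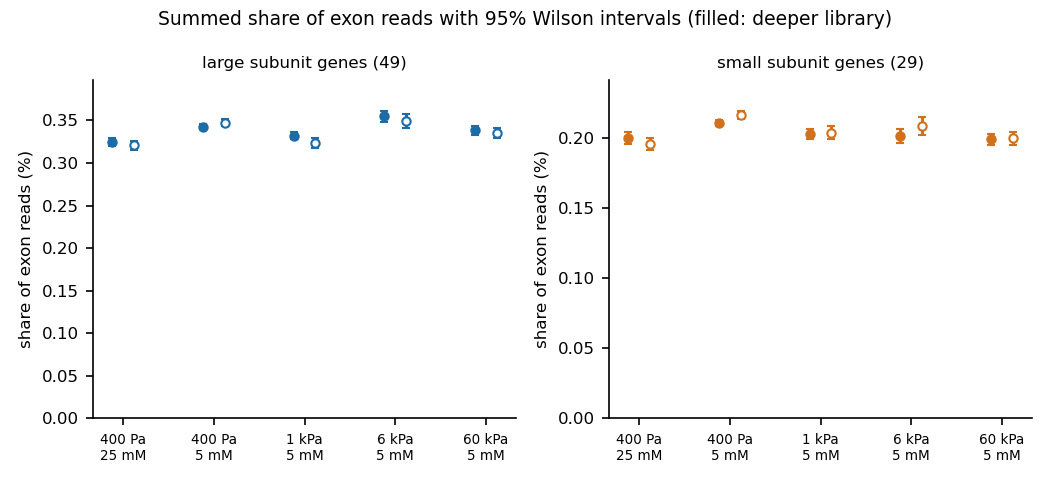
Share of exon reads (%) taken by large (left) and small (right) subunit genes in each library, with 95% Wilson intervals, which cover counting error only. In the large subunit the 25 mM libraries, at 0.325 and 0.321%, lie below both 400 Pa libraries at 5 mM, at 0.343 and 0.347%.

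The comparison of 60 kPa with 400 Pa asks how cells on a stiff gel differ from cells on a soft one. Of the 78 genes 14 rose and 24 fell at 60 kPa (limma on the deposited log2 values, Benjamini-Hochberg adjusted p under 0.05). Among all 12720 genes tested 26.6% rose and 25.2% fell, so the genes were called about as often as others, at 48.7% against 51.8%. The median log2 fold change was -0.07. Of the 49 large subunit genes 10 rose and 16 fell (median -0.08), and of the 29 small subunit genes 4 rose and 8 fell (median -0.07). Genes listed as homologues of bacterial proteins (9 rose, 13 fell of 48) and mitochondria-specific ones (5 rose, 11 fell of 29) were both split. MRPL55, counted among the 48, was not called. Both subunits and both origins held genes of each direction. FPKM of the 60 kPa libraries lay above both 400 Pa libraries for 27 genes and below for 26, against 41.3% and 29.4% of all genes.

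GC content ran with direction. All 14 genes that rose were among the 26 of lowest GC, none of which fell (median log2 fold change 0.20). Of the 26 of highest GC 18 fell and none rose (median -0.23), and of the middle 26 none rose and 6 fell. Across the 78 genes the Spearman correlation of log2 fold change and GC was -0.83, a description over genes that share the same 4 libraries. It was -0.74 over all 12556 genes with both values, so the relation was not confined to these genes. It was of like size with the GC of the coding part alone (-0.83). In single libraries, the deviation from the gene mean ran with GC at a Spearman correlation of -0.67 and -0.82 in the 60 kPa libraries and 0.76 and 0.82 in the 400 Pa libraries. Over all genes these values were -0.67 and -0.69, and 0.67 and 0.73. The mean was that of the same 4 libraries, so opposite signs between the groups are partly built in. The part of GC in each result was not tested. Counts and genes are therefore given also after a per-library smooth over GC was removed.

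After that correction 4 genes rose and 18 fell, against 19% of all genes in the upward and 19.1% in the downward direction. Of large subunit genes 3 rose and 8 fell, and of small subunit genes 1 rose and 10 fell. The Spearman correlation with GC was then -0.13. Without and with the correction alike, 2 genes rose and 11 fell. A fit on log2(FPKM + 1) of all 10 libraries called 7 that rose and 3 that fell, all among the 38 called in the deposited values, against 15.1% and 6.15% of all genes. The calls of all 3 fits coincided for MRPL42 and MRPS10, which rose, and MRPL4, MRPS24 and MRPL53, which fell.

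**Figure D3:**
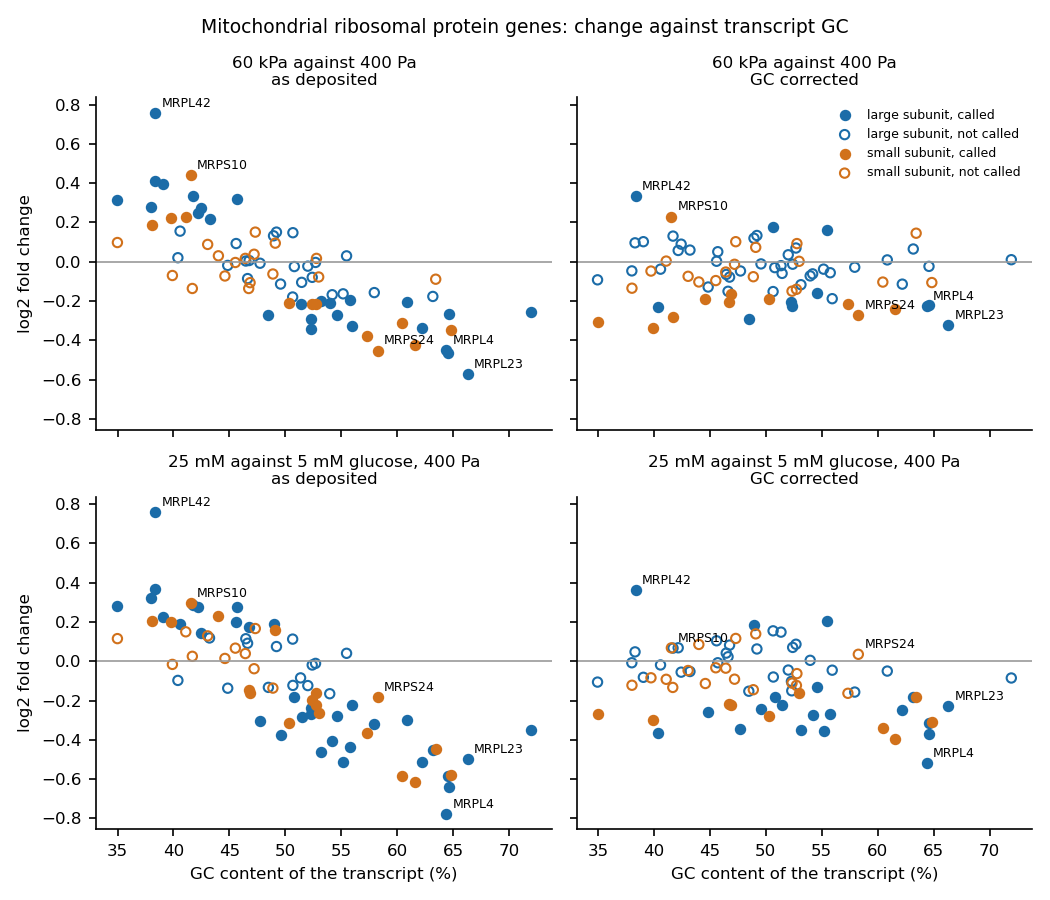
Log2 fold change of each gene against the GC content (%) of its transcript, for 60 kPa against 400 Pa (top) and 25 mM against 5 mM glucose (bottom), on the deposited values (left) and after GC correction (right). Filled points passed the test. On the left the points fall with GC (Spearman -0.83 and -0.86), and on the right they lie nearer to 0 (Spearman -0.13 and -0.34), with MRPL42 still highest. Points stand at the GC of the FPKM table's transcript. The correlations use the transcript of the log2 tables, which differs for 26 and 27 of the genes.

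MRPL42 (hg19 chr12:93861266-93897548), a mitochondria-specific protein of the large subunit, had 21.5 and 19.8 FPKM at 60 kPa, against 9.87 and 9.57 FPKM at 400 Pa. Both 60 kPa libraries stood far above both 400 Pa libraries. The log2 fold change was 0.76 (SE 0.07, adjusted p = 9.88e-13) on the deposited scale and 0.33 (SE 0.06, adjusted p = 0.000306) after GC correction. On log2(FPKM + 1) it was 1.01, and the authors' deposited table gives 1.00. The deposited values are variance-stabilised, so their differences are not plain log2 ratios of reads. Fold changes differed between these scales. Over the 38 genes called at 60 kPa the change on log2(FPKM + 1) was a median of 1.19 times that on the deposited values. For 11 of the 38 genes it was over 1.5 times. Of the 52 called at 25 mM, 16 were over 1.5 times. MRPS10 (0.67 on log2(FPKM + 1), 0.44 deposited), MRPL1 (0.71 and 0.40) and MRPL39 (0.61 and 0.34) are among these. For MRPL42 the log2 tables count another transcript than the FPKM table, and 4 pseudogenes bear the name of MRPL42. MRPS10 (chr6:42174539-42185633), a homologue of bacterial S10, had 22.3 and 21.1 FPKM at 60 kPa, against 13.7 and 12.8 FPKM at 400 Pa. The groups lay well apart (log2 fold change 0.44, SE 0.07, adjusted p = 1.81e-06; GC corrected 0.23, adjusted p = 0.00918).

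MRPL4 (chr19:10362640-10370721), a homologue of bacterial L4, had 38.1 and 35.6 FPKM at 60 kPa, against 49.8 and 56.1 FPKM at 400 Pa. Both 60 kPa libraries lay below both at 400 Pa (log2 fold change -0.45, SE 0.07, adjusted p = 3.08e-07; GC corrected -0.22, adjusted p = 0.00764). MRPS24 (chr7:43906157-43909145), a homologue of bacterial S3, had 57.8 and 58.8 FPKM at 60 kPa, against 77.7 and 88.8 FPKM at 400 Pa. It was the largest fall in the small subunit (log2 fold change -0.45, SE 0.07, adjusted p = 6.79e-07; GC corrected -0.27, adjusted p = 0.00278). MRPL53 (chr2:74699085-74699942), specific to mitochondria, had 18.3 and 23.1 FPKM at 60 kPa, against 28.1 and 29.3 FPKM at 400 Pa. The groups did not overlap, but the 60 kPa libraries differed from each other by more than those at 400 Pa (log2 fold change -0.29, adjusted p = 0.00226; GC corrected -0.23, adjusted p = 0.0293). Exons of MRPS24, MRPL53 and MRPL42 overlap those of another gene on the same strand (URGCP-MRPS24, CCDC142 and RN7SL737P), and those of MRPL4 overlap AC011511.2 and AC011511.3 on the opposite strand. The counting command set no strand option, so reads of such pairs cannot be told apart.

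Other large falls on the deposited values came from GC-rich genes. MRPL23, a homologue of bacterial L23, had the lowest log2 fold change of all 78 (-0.57, SE 0.07, adjusted p = 5.15e-09), with 41.5 and 36.7 FPKM at 60 kPa against 62.4 and 66.4 FPKM at 400 Pa. MRPL38 (-0.46), a mitochondria-specific protein, and MRPS12 (-0.42), the homologue of the decoding-centre protein S12, fell too. These 3 falls also passed after GC correction (-0.32, -0.22 and -0.24), but not on log2(FPKM + 1), where adjusted p ran from 0.0784 (MRPL38) to 0.195 (MRPS12). MRPS34, a mitochondria-specific protein mutated in Leigh syndrome, fell on the deposited values (-0.35) and not after GC correction (-0.11, adjusted p = 0.177). Among rises, MRPL19 (0.41), MRPL1 (0.40) and MRPL39 (0.34) lost their call after GC correction (0.10, 0.10 and 0.13, adjusted p = 0.208, 0.297 and 0.205).

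The 3 paralogs of bacterial S18 did not share a direction on the deposited values, and all 3 values were negative after GC correction. The difference between them was not tested. MRPS18A, which sits in the large subunit, had 18.6 and 17.8 FPKM at 60 kPa, against 24.5 and 27.7 FPKM at 400 Pa. It fell with and without GC correction (-0.22 and -0.38, adjusted p = 0.0192 and 4.16e-05). MRPS18B fell on the deposited values (-0.21, adjusted p = 0.00778; GC corrected -0.14, adjusted p = 0.0943), with 47.6 and 37.9 FPKM at 60 kPa overlapping 45.1 and 51.1 FPKM at 400 Pa. MRPS18C, the most AT-rich of them at 38.0% GC, rose on the deposited values (0.19, adjusted p = 0.0375), and its value turned to -0.13 after GC correction (adjusted p = 0.147). MRPS30, MRPL44, MRPL45 and MRPL58 were not called in either fit, with deposited log2 fold changes of 0.02, -0.02, -0.09 and -0.10. MRPL44 resembles ribonuclease III, MRPL45 anchors the ribosome to the inner membrane, and MRPL58 releases stalled peptides. MRPS14 and MRPS36, both AT-rich, were not called on the deposited values (-0.07 and 0.10) and fell after correction (-0.34 and -0.31, adjusted p = 0.00187 and 0.00232).

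The comparison of 25 mM with 5 mM glucose on the 400 Pa gel asks what more glucose does on a soft gel, and it uses the same 400 Pa libraries as the stiffness comparison. On the deposited values 18 of the 78 genes rose and 34 fell at 25 mM, against 27.9% and 27.5% (55.4% in either direction) of the 12826 genes tested (limma, Benjamini-Hochberg). The median log2 fold change was -0.12. Large subunit genes gave 13 that rose and 21 that fell of 49 (median -0.12), and small subunit genes 5 and 13 of 29 (median -0.04). Of the 26 genes of lowest GC 15 rose and none fell, and of the 26 of highest GC none rose and 24 fell. The Spearman correlation of log2 fold change and GC was -0.86 over the 78 genes and -0.79 over all genes with both values.

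After GC correction 3 genes rose and 27 fell at 25 mM, against 20.5% and 20.6% of all genes tested (median log2 fold change -0.10). The Spearman correlation with GC was then -0.34 over the 78 genes and -0.02 over all genes, so a relation with GC remained in this set. All 3 that rose were large subunit genes, and the 27 that fell were 17 large and 10 small subunit genes. Without and with the correction alike, 2 genes rose (MRPL42 and MRPL51) and 23 fell. On log2(FPKM + 1) 6 rose and 14 fell, against 17.6% and 6.84% of all genes. The median of the small subunit genes was then 0.07, on the other side of 0 from the deposited values. All 3 fits called 15 genes alike, with MRPL42 rising and 14 falling. FPKM at 25 mM lay above both 5 mM libraries for 32 genes and below for 32, against 43.9% and 31.1% of all genes.

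MRPL42 had 21.4 and 21.6 FPKM at 25 mM, against 9.87 and 9.57 FPKM at 400 Pa and 5 mM. Its log2 fold change was 0.76 (SE 0.07, adjusted p = 2.86e-19; GC corrected 0.36, adjusted p = 3.53e-05). MRPL4 had 27.5 and 27.8 FPKM at 25 mM, against 49.8 and 56.1 FPKM at 5 mM, the largest fall of the set (log2 fold change -0.78, SE 0.07, adjusted p = 6.58e-21; GC corrected -0.52, adjusted p = 6.84e-08). In both genes the libraries within each group lay close together and the groups far apart. MRPL12, which also binds the mitochondrial RNA polymerase, had 68.2 and 66.6 FPKM at 25 mM, against 103.5 and 109.4 FPKM at 5 mM. It fell in both fits (log2 fold change -0.64, adjusted p = 1.48e-17; GC corrected -0.37, adjusted p = 3.46e-06). MRPS12 fell (33.2 and 22.8 FPKM at 25 mM, against 43.4 and 54.6 FPKM at 5 mM; log2 fold change -0.62, GC corrected -0.40, adjusted p = 0.000146), and its groups did not overlap. MRPS34 had 50.3 and 51.8 FPKM at 25 mM, against 77.7 and 79.8 FPKM at 5 mM (log2 fold change -0.58, GC corrected -0.31, adjusted p = 0.000107).

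MRPS2, a homologue of bacterial S2, fell (-0.59, GC corrected -0.34, adjusted p = 4.71e-05), as did MRPL38 (-0.58, GC corrected -0.31, adjusted p = 0.000268). MRPL34, a homologue of L34, had 31.9 and 24.9 FPKM at 25 mM, against 42.8 and 46.4 FPKM at 5 mM (log2 fold change -0.51, GC corrected -0.36, adjusted p = 0.000169). MRPL58 fell as well (-0.28, GC corrected -0.22, adjusted p = 0.0107), whereas MRPS30 and MRPL45 were called in neither fit. MRPL51 rose (136.5 and 126.7 FPKM at 25 mM, against 103.2 and 103.4 FPKM at 5 mM; log2 fold change 0.19, GC corrected 0.18, adjusted p = 0.0115). MRPS24 fell on the deposited values (-0.18, adjusted p = 0.0188) and was at 0.04 after correction (adjusted p = 0.683); its 25 mM libraries, 77.4 and 74.7 FPKM, lay just below 77.7 and 88.8 FPKM at 5 mM.

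**Figure D4:**
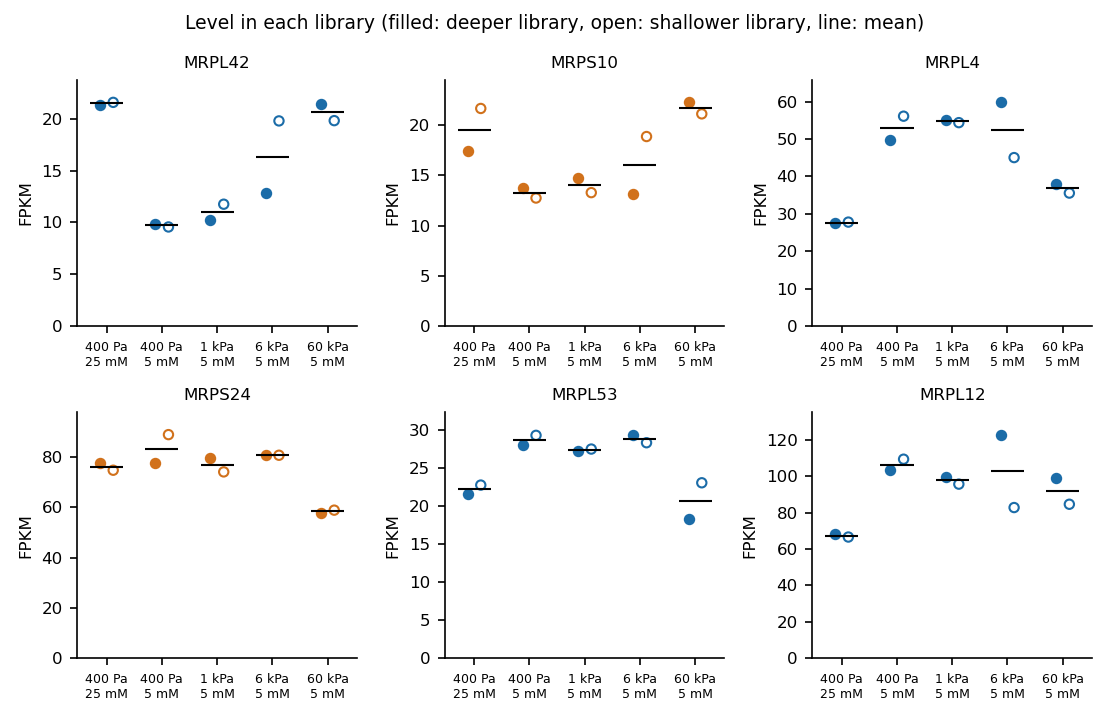
FPKM of 6 genes in each library (filled, deeper; open, shallower; line, mean; blue, large subunit; orange, small subunit), with 25 mM left of the 5 mM group and stiffness running low to high. MRPL42 stands near 21 FPKM at 25 mM and 60 kPa and near 10 FPKM at 400 Pa and 1 kPa; MRPS24 is low in the 60 kPa libraries alone (57.8 and 58.8 FPKM).

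A direct contrast of 60 kPa with 400 Pa at 25 mM tests whether the 2 conditions differ from each other. On log2(FPKM + 1) limma called 0 of the 78 genes, against 0.429% of all genes as higher, 1.32% as lower and 1.75% in either direction, and 16 (20.5%) had an unadjusted p under 0.05, against 14.6% of all genes. FPKM did not overlap for 25 genes higher and 12 lower at 60 kPa, against 23.9% and 24.9% of all genes. After GC correction 4 were higher and 2 lower at 60 kPa, against 3.18% and 3.74% (6.92% in either direction) of all genes. MRPL34 (log2 difference 0.48, adjusted p = 0.0402), MRPL12 (0.39, adjusted p = 0.00309), MRPL4 (0.35, adjusted p = 0.015) and MRPL11 (0.33, adjusted p = 0.0469), all homologues of bacterial proteins, were higher. MRPL36 (-0.58, adjusted p = 0.0314) and MRPS24 (-0.42, adjusted p = 0.0284) were lower. MRPL36, a homologue of L36, had 25.9 and 19.3 FPKM at 60 kPa, against 32.6 and 35.7 FPKM at 25 mM. MRPL12 had 98.8 and 84.6 FPKM at 60 kPa, against 68.2 and 66.6 FPKM at 25 mM. None of these groups overlapped. For MRPL42 the difference was -0.06 (SE 0.18) without and -0.02 (SE 0.11) with the correction.

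At 1 kPa the genes lay slightly below 400 Pa. Limma called 0 of the 78 at 1 kPa, as it did of all 12820 genes tested, and 7 (8.97%) had an unadjusted p under 0.05, against 6.05% of all genes. The median log2 fold change was -0.11, against -0.01 for all genes, and 63 of the 78 values were negative. Both 1 kPa libraries lay below both 400 Pa libraries for 36 genes and above for 3, against 26.3% and 22.8% of all genes. The Spearman correlation with GC was 0.05. With exon length it was 0.24 over all genes and 0.08 over the 78, and with mean level -0.23 and -0.30. The 78 genes were shorter than all genes tested (median 1152 against 2706 bases) and at a higher level (median 32.4 against 7.22 FPKM). The part of length and level in the lower values was not tested. After GC correction limma again called 0 of the 78, and 0.0396% of all genes, all of them lower. An unadjusted p under 0.05 was then found for 12 of the 78 (15.4%), against 11.1% of all genes. MRPL51, with 85.1 and 82.0 FPKM at 1 kPa against 103.2 and 103.4 FPKM at 400 Pa, and MRPS15, with 61.3 and 70.6 FPKM against 83.0 and 81.7 FPKM, are examples with groups apart; neither passed the test (adjusted p = 0.823 and 0.8).

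At 6 kPa the 2 libraries stood apart from each other. Their log2 levels correlated at 0.901 over the 78 genes, against 0.974 or more in the other groups, and the median gene differed 0.297 log2 between them. MRPL23 had 69.3 FPKM in the deeper and 32.8 FPKM in the shallower library, and MRPL42 had 12.8 and 19.8 FPKM. The first principal component of log2(FPKM + 1) over the genes held 65.3% of the variance, and its loadings ran with GC at a Spearman correlation of -0.88. On it the shallower 6 kPa library lay on the side of 60 kPa and 25 mM, and the deeper beyond the 400 Pa and 1 kPa libraries. Against 400 Pa limma called 0 of the 78 genes at 6 kPa (6, or 7.69%, with an unadjusted p under 0.05, against 13.3% of all genes), where 0.351% of all genes were called (0.0546% higher, 0.296% lower). After GC correction it called 0 as well, against 0.863% higher, 1.19% lower and 2.05% in either direction, and 14 (17.9%) had an unadjusted p under 0.05, against 17.1% of all genes. FPKM at 6 kPa lay above both 400 Pa libraries for 12 genes and below for 11, against 23.2% and 18.2% of all genes. Leaving out 1 library gave calls at 6 kPa only when its deeper library was the one left out. The share of all genes in that fit is not given here.

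**Figure D5:**
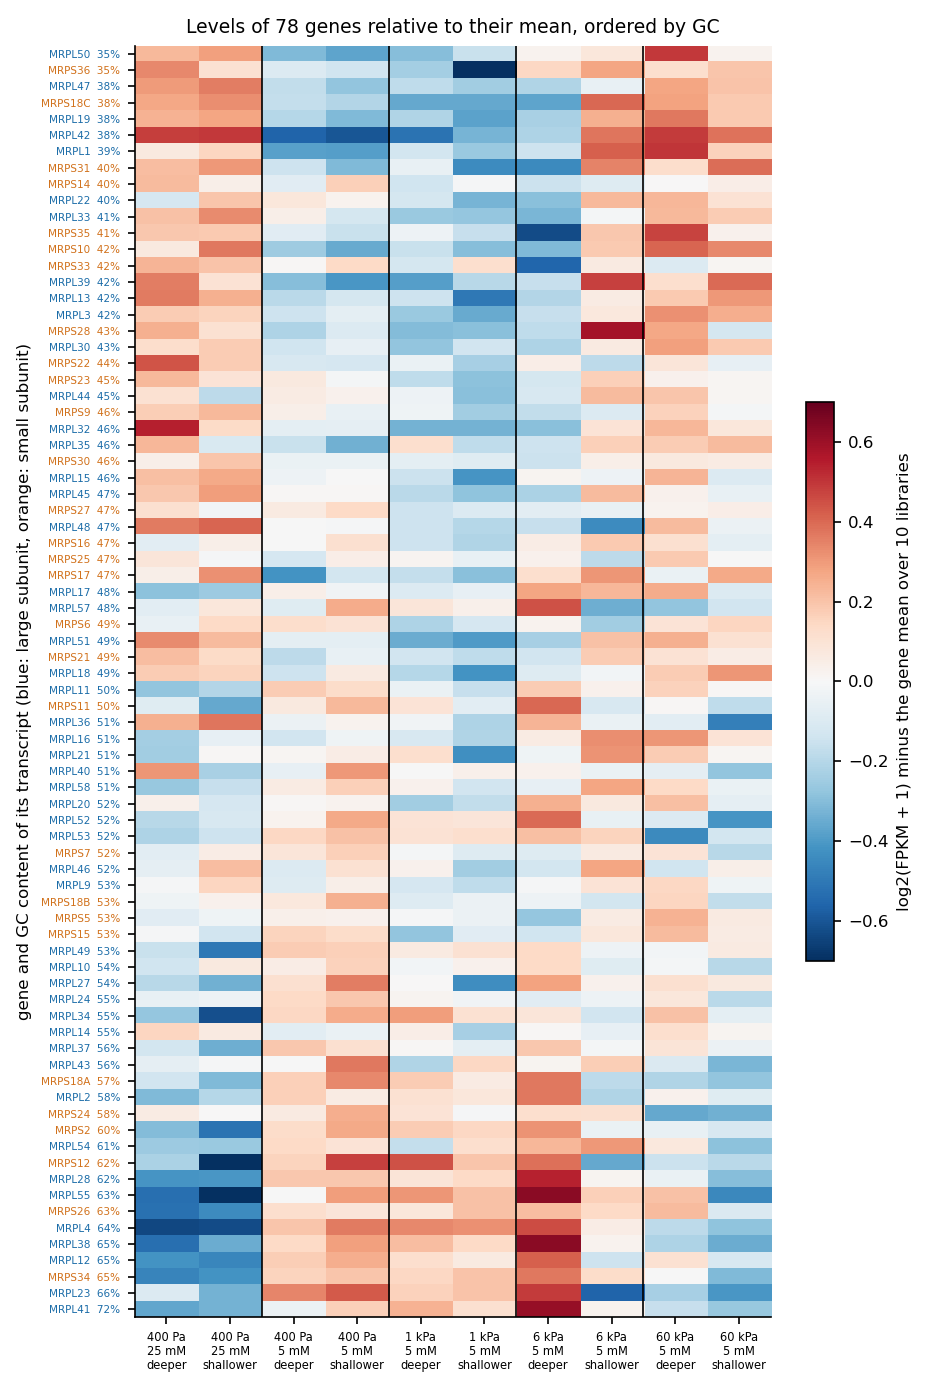
Log2(FPKM + 1) of each gene minus its mean over the 10 libraries (colour), with genes in rows ordered by GC content and libraries in columns. Most genes of low GC (top) are red at 25 mM and 60 kPa and blue at 400 Pa and 1 kPa, and most of high GC (bottom) the reverse, with exceptions such as MRPS33, MRPS14 and MRPL14; the 6 kPa libraries differ from each other.

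Over the 4 stiffnesses at 5 mM, a slope per 10-fold of stiffness was called upward for 9 genes and downward for 2, against 16.8% and 6.55% of all genes (23.3% in either direction; limma on log2(FPKM + 1)). MRPL42 had the steepest slope, 0.48 per 10-fold (SE 0.08, adjusted p = 0.00345), with 9.72 ± 0.21 FPKM at 400 Pa, 10.99 ± 1.102 at 1 kPa, 16.3 ± 5.0 at 6 kPa and 20.7 ± 1.2 at 60 kPa (SD, n = 2 each). Neighbouring groups did not overlap, but the shallower 6 kPa library, at 19.8 FPKM, reached the lower 60 kPa library, also 19.8 FPKM. After GC correction the slope of MRPL42 was 0.23 (adjusted p = 0.0383), the only upward call left. MRPS33 (-0.25) and MRPS14 (-0.22) were then called downward (adjusted p = 0.0418 and 0.0386), and all genes gave 4.1% upward, 4.21% downward and 8.32% in either direction. Downward without correction were MRPL4 (-0.24) and MRPS24 (-0.21). Fewer genes were called upward when either 60 kPa library was left out. The share of all genes in those fits is not given here.

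Other genes of mitochondrial translation, from lists chosen with earlier results known, moved in mixed directions at 60 kPa. The counts stand beside 26.6% of all genes that rose and 25.2% that fell, and beside 19% and 19.1% after GC correction. Of 6 mitoribosomal proteins without an MRP symbol 1 rose and 3 fell, and 0 and 2 after correction. Among them GADD45GIP1 fell by 0.38 on the log2 scale (-0.17 GC corrected, also called) and AURKAIP1 by 0.32 (-0.06, not called). Of 14 initiation, elongation and release factors 3 rose and 1 fell, and 0 and 2 after correction. The factor that fell was TUFM, the elongation factor Tu (-0.40, adjusted p = 5.74e-09; GC corrected -0.23, also called). Of 23 assembly and rRNA modification factors 5 rose and 4 fell, and 2 and 0 after correction. FASTKD2, which binds the large rRNA, rose by 0.51 (0.26 GC corrected, also called). Of 17 mitochondrial tRNA synthetases 2 rose and 4 fell, and 2 and 2 after correction; VARS2, for valine, fell in both fits (-0.38, GC corrected -0.18).

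Of 14 genes for mitochondrial transcription and RNA processing 7 rose and 3 fell, and 5 and 0 after GC correction. TFAM, which packages mitochondrial DNA and starts its transcription, rose by 0.77 (SE 0.07, adjusted p = 1.27e-13; GC corrected 0.45, also called). LRPPRC, which with SLIRP holds mitochondrial messenger RNA, rose by 0.52 (GC corrected 0.34) and SLIRP by 0.37 (GC corrected 0.27), and both passed both fits. POLRMT, the mitochondrial RNA polymerase, fell by 0.37 and was not called after correction (-0.13). Among 8 nuclear regulators 2 rose and 2 fell, and 0 and 2 after correction; ESRRA fell in both fits (-0.54 and -0.30), and YY1 was not called (0.12).

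At 25 mM glucose 27.9% of all genes rose and 27.5% fell, and 20.5% and 20.6% after GC correction. TUFM fell (-0.55, GC corrected -0.34) and LRPPRC rose (0.68, GC corrected 0.48), both called in both fits. TFAM rose by 0.51 (GC corrected 0.19, also called). Of the 23 assembly factors 4 rose and 9 fell, and 2 and 5 after correction; DHX30, a helicase of ribosome assembly, fell by 0.59 (GC corrected -0.37, also called). Of the 17 tRNA synthetases 1 rose and 8 fell, and 1 and 2 after correction. Correction turned the balance of the 14 translation factors, of which 3 rose and 2 fell, and 3 and 4 after it. The same held for the 14 transcription and RNA genes, with 7 that rose and 3 that fell, and 4 and 5 after it. Of the 6 other mitoribosomal proteins 1 rose and 4 fell, and 0 and 4 after correction, and of the 8 regulators 2 rose and 3 fell, and 1 and 2 after correction.

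Cytosolic ribosomal protein genes, the most similar other set, mostly fell with stiffness. Of 79 tested 3 rose (3.80%, against 26.6% of all genes) and 53 fell (67.1%, against 25.2%) at 60 kPa, with a median log2 fold change of -0.26. After GC correction 3 rose (against 19% of all genes) and 58 fell (73.4%, against 19.1%), with a median of -0.28. The median of the mitochondrial set after correction was -0.06. At 25 mM 15 of the cytosolic set rose (19.0%, against 27.9% of all genes) and 37 fell (46.8%, against 27.5%), with a median of -0.08. After correction 15 rose and 38 fell (48.1%, against 20.6%), with a median of -0.09. The medians of the mitochondrial set were -0.12 and -0.10. The difference between the sets was not tested.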

How the data were processed

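Libraries were prepared with the KAPA mRNA HyperPrep kit, per the labels' protocols. Alignment used STAR, counting used HOMER and the genome was hg19, per the submitters' processing notes, with no version named. FPKM came from HOMER's analyzeRepeats with the rpkm option, 1 transcript a gene, per the file headers; it was deposited for 10 libraries in 1 table. The 2 comparison tables hold log2 values that HOMER's getDiffExpression wrote from exon read counts of 4 libraries each, per the file headers. These values are variance-stabilised. These tables count another transcript than the FPKM table for 26 (stiffness) and 27 (glucose) of the 78 genes. Correlations with whole-transcript GC and the GC correction in these 2 comparisons used the transcripts of these tables. The groups of 26 genes by GC and the figures used those of the FPKM table. The p-values in the authors' deposited tables were not used, and their log2 fold change is quoted once.

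Limma 3.58.1 (R 4.3.3, moderated with a trend) was fitted to the deposited log2 values of each table. Genes with no 0 were kept if their average reached the log2 of 10 on the variance-stabilised scale, which is not a cut at 10 reads. The other contrasts used log2(FPKM + 1) of 10 libraries in 5 groups, keeping averages from 0.5 FPKM up. P-values were adjusted by Benjamini-Hochberg over all genes and called under 0.05. The fits of 4 libraries have 2 residual and 46.1 (stiffness) or 182.6 (glucose) prior degrees of freedom, so their errors rest mostly on the trend across genes. P-values of these fits therefore rest on a spread between libraries that is pooled mostly across genes, not on that of each gene alone. In no fit do they measure a spread beyond these libraries. The deposited values are not counts, and by choice no count model was run on reads recovered from them. The submitters' notes name DESeq2. For shares, reads were recovered from FPKM, length and library total, and at least 99.976% of the values tested lay within 0.12 of a whole number. The totals of the 1 kPa and 6 kPa libraries were themselves recovered from the values. The GC correction removed, per library, a lowess curve (span 0.3) of the deviation from the gene mean against transcript GC, from GENCODE 29 transcripts matched by accession (76 genes) or symbol (2). Of these, 24 differ in length from the counted transcript by over 15%. The fits were tested on simulated data. The members and lists were chosen with earlier results of these data known. Named genes are, per subunit and main comparison, the 4 largest rises and falls past the test, the 3 highest and 2 lowest by level, some by role, and the largest change of each other contrast. Other names were chosen after their values were seen.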

Additional observations from a re-analysis of the deposited data

How the results depend on the processing

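Both main comparisons have 2 libraries a group, and depth was lowest at 6 kPa. On another scaling (trimmed mean of M-values, TMM) the FPKM values moved by 0.11 log2 at 60 kPa and 0.14 at 25 mM relative to 400 Pa. Rises at 60 kPa numbered 14 on the deposited values, 4 with GC correction, 7 with GC and length correction, 7 on log2(FPKM + 1), 6 on it with TMM and 1 on it with GC correction; falls numbered 24, and 18, 13, 3, 9 and 0 (in the last fit 21 genes, or 26.9% against 25.3% of all genes, had an unadjusted p under 0.05). Rises at 25 mM numbered 18, and in the same order 3, 5, 6, 3 and 2; falls numbered 34, and 27, 22, 14, 22 and 6. The fits with TMM or GC correction on log2(FPKM + 1) were chosen after seeing the data. Leaving out 1 library each gave the fewest rises and falls without the shallower 400 Pa library, both at 60 kPa and at 25 mM. At 6 kPa it gave calls only without the deeper 6 kPa library. The slope had 9 rises, and 1 (GC), 4 (GC and length) and 1 to 14 (leaving out a library); its 2 falls became 1 (GC and length), 10 (TMM), 0 (no filter on low values) and 0 to 12 (leaving out a library); 14 and 12 came without the deeper 6 kPa library, 4 falls without the shallower one, and 0 falls without the deeper 1 kPa, the shallower 400 Pa or either 60 kPa library. In the direct contrast 0 higher became 4 (GC), 5 (GC and length) and 1 (TMM), and 0 lower became 2 (GC). Calls also came when either 6 kPa library was left out. The cause was not tested.

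Signs turned for some named genes under GC correction, GC and length correction, or GC correction of log2(FPKM + 1), given here as log2 fold changes. At 60 kPa these were MRPL12 (0.027 GC and length, 0.15 GC on FPKM), MRPL19 (-0.019 GC on FPKM), MRPL47 (-0.0034 GC and length, -0.046 GC, -0.10 GC on FPKM), MRPS18C (-0.088 GC and length, -0.13 GC, -0.14 GC on FPKM), MRPS2 (0.0025 GC on FPKM), MRPS26 (0.19 GC and length), MRPS31 (-0.011 GC and length, -0.047 GC, -0.0011 GC on FPKM), MRPS34 (0.041 GC on FPKM), MRPS35 (-0.047 GC on FPKM), MRPS36 (-0.27 GC and length, -0.31 GC). At 25 mM they were MRPL1 (-0.049 GC and length, -0.082 GC, -0.066 GC on FPKM), MRPL19 (-0.027 GC and length, -0.0698 GC on FPKM), MRPL47 (-0.0079 GC, -0.043 GC on FPKM), MRPS18C (-0.0902 GC and length, -0.12 GC, -0.11 GC on FPKM), MRPS24 (0.0597 GC and length, 0.035 GC, 0.15 GC on FPKM), MRPS31 (-0.051 GC and length, -0.084 GC, -0.043 GC on FPKM), MRPS36 (-0.24 GC and length, -0.27 GC). In the slope they were MRPL19 (-0.0044 GC and length), MRPL47 (-0.033 GC and length, -0.051 GC). No paired analysis was possible because the table columns carry no replicate numbers. The planned edgeR and DESeq2 fits on the recovered reads were not run, by choice, as the deposited units are FPKM and log2 values.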
